A study of Homo sapiens with 4 samples.

Results

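The salt-inducible kinases and the CREB-CRTC switch that they control were followed in RPE-1 cells between 4 h and 8 h of merbarone. The family holds 10 genes of the 23459 listed in each library: the kinases SIK1, SIK2 and SIK3, the CREB coactivators CRTC1, CRTC2 and CRTC3, the transcription factors CREB1 and CREM, and the cAMP phosphodiesterases PDE4B and PDE4D. The genes were taken by their current NCBI symbol. The family was chosen by the normalized counts of SIK1, which had been seen to be higher at 8 h, so the change of SIK1 is described here without a test. The other 9 genes entered by name, with earlier results of these data known. All 10 passed the filter on low counts that retained 12559 genes.

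hTERT RPE-1 is a non-cancerous human retinal pigment epithelial line, wild type and immortalized with telomerase. Before treatment all cultures were kept for 48 h in medium with 0.1% FBS, which arrests the cells in G0/G1. They then received 200 μM merbarone, a catalytic inhibitor of DNA topoisomerase II, and RNA was taken after 4 h (2 replicates) or 8 h (2 replicates). Every library therefore comes from treated, serum-starved cells of a single line. Untreated cells were not analysed here, so time under merbarone and time in low serum cannot be told apart. Values are reads counted per gene, and in such bulk samples fewer expressing cells and less RNA per cell cannot be told apart.

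The libraries held between 8064450 and 10324697 counts, with the smallest in replicate 2 at 8 h. The replicates of a time differed beyond the sampling of reads, with a chi-square statistic per degree of freedom of 2.67 at 4 h and 3.84 at 8 h. Of 9 markers of retinal pigment epithelium, 4 were retained, and the most abundant was the transcription factor MITF, with 757 ± 48.1 normalized counts at 4 h and 859 ± 39.2 at 8 h (SD, n = 2 each). RPE65, which defines the mature tissue, had between 2 and 7 counts per library, and TYR had none. All 5 marker genes of the line were retained: the epithelial keratins KRT8 and KRT18, the mesenchymal VIM and FN1, and the telomerase gene TERT. KRT18 fell (log2FC −0.51, edgeR adjusted p = 3.72e-05), while KRT8 did not pass (log2FC 0.03, edgeR adjusted p = 0.798). VIM and FN1 rose (log2FC 0.36 each, edgeR adjusted p = 0.000623 and 6.48e-05), and TERT did not pass (log2FC 0.32, edgeR adjusted p = 0.260). The changes of KRT18, VIM and FN1 were close in size to those of several family genes below, and their part in those results was not tested. Of the markers of other cell types, 0 of 8 were retained, with 3 of the 8 at no count in any library and a summed level between 0.687 and 1.14 CPM.

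Cyclic AMP is made by adenylyl cyclases and activates protein kinase A (PKA), which phosphorylates CREB and also the SIK kinases. Active SIKs, which need phosphorylation by the kinase LKB1, phosphorylate CRTC proteins, and these are then held in the cytoplasm by 14-3-3 proteins. When SIK activity falls, or when calcineurin removes the phosphates, CRTCs enter the nucleus and join CREB on cAMP response elements (CREs). SIK1, phosphodiesterase genes of the PDE4 family and an internal promoter of CREM, which makes the short repressor ICER, are themselves known targets of CREB, and each limits the signal. In retinal pigment epithelium, cAMP is known for its part in fluid transport.

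The stretches before the start sites of the 3 SIK genes, and before an internal start of CREM, are shown because CREs are where CREB and CRTC act. Capitals mark the core TGACG or its reverse complement CGTCA, and in CREM the whole palindromic site TGACGTCA. The sequences are from the RefSeq promoter table (GRCh38.p14), each was found once as an exact match on its chromosome in GRCh37, the assembly of hg19, and positions are given on GRCh37. The CREM stretch lies inside the gene, upstream of a later exon, and was picked because it held the whole site. Whether ICER starts there was not tested. Each of the 4 stretches is cut where it would meet a GENCODE exon of its strand.
SIK1, chr21:44847012-44847261, minus strand: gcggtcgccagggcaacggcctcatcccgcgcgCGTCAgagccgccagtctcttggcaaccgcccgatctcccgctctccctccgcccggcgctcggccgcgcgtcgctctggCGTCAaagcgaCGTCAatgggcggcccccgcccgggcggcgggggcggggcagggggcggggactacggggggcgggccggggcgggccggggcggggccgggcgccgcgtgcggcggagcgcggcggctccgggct
SIK2, chr11:111472923-111473172, plus strand: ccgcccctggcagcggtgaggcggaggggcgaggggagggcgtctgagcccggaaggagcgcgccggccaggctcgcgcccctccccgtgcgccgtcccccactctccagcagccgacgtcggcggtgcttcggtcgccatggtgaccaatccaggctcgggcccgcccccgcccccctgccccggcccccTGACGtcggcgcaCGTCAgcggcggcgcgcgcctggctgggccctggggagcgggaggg
SIK3, chr11:116969154-116969394, minus strand: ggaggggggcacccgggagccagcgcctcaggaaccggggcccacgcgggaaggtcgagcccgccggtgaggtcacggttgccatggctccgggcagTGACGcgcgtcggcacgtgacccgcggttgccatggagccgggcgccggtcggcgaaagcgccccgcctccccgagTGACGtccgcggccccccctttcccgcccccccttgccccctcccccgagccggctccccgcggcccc
CREM, internal start, chr10:35484580-35484792, plus strand: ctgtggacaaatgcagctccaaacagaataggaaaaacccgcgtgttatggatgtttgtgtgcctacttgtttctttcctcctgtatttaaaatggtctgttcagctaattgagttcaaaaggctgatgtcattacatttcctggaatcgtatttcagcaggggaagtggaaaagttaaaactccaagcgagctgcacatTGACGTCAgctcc

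In SIK1 the core occurred 3 times, at 217 to 213, 137 to 133 and 126 to 122 bases before the RefSeq start. SIK2 held it at 59 to 55 and 46 to 42 bases before its RefSeq start, and SIK3 at 153 to 149 and 77 to 73. The SIK3 stretch shown was cut to 241 bases and ends before the RefSeq start from which its positions are counted. Over the 250 bases before every start in the table, both strands searched, 21.2% of 35116 windows held the core and 1.65% held the whole site, and 24.9% of 27305 genes had the core in at least 1 window, every whole site being counted among the cores. Windows were found for 9 of the 10 genes, and in 6 of the 9 at least 1 window held the core (SIK1, SIK2, SIK3, CRTC3, CREM and PDE4D). Counted by window, 7 of the 27 windows of the family held it. Only CREM held the whole site, in 1 of its 7 windows. Genes with many annotated starts, such as CREM, PDE4B (6 windows) and PDE4D (8 windows), have more chances to hold a match, and a match of letters is not a measurement of binding.

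SIK1 (chromosome 21, 44834363 to 44847011, minus strand) encodes the kinase of the family whose own transcription is induced by cAMP. Its TMM-normalized count, which is the read count corrected for library size and composition, was 3173 and 3631 in the 4 h replicates and 8249 and 9822 in the 8 h replicates. Both 8 h libraries thus lay above both 4 h libraries, and in each time replicate 2 was the higher one. The mean went from 3402 ± 324 to 9036 ± 1112 (SD, n = 2 each), a 2.66-fold difference with a fitted log2 fold change (log2FC) of 1.41 (standard error 0.09). Of the 12559 retained genes, 56 had a larger fitted log2FC, and by mean normalized count SIK1 lay above 98.6% of them. Scaling by library size alone gave a log2FC of 1.30 and correction of each library for the trend with abundance gave 1.25. The GENCODE annotation on GRCh37 places a further record, typed as an artifact, over the same coordinates and sharing 91.0% of the SIK1 exon bases.

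SIK2 (chromosome 11, 111473173 to 111601579, plus strand), a kinase that also holds CRTCs in the cytoplasm, had 679 and 771 normalized counts at 4 h against 964 and 1008 at 8 h. The times did not overlap, and SIK2 rose 1.36-fold (log2FC 0.44, standard error 0.09, edgeR adjusted p = 0.000744). SIK3 (chromosome 11, 116714118 to 116969153, minus strand), the third kinase, had 216 and 232 normalized counts at 4 h against 268 and 352 at 8 h. It rose 1.38-fold (log2FC 0.46, standard error 0.14, edgeR adjusted p = 0.0142). Its times did not overlap, but at 8 h replicate 2 was 1.31 times replicate 1. Without replicate 2 at 8 h the log2FC of SIK3 was 0.26 (edgeR adjusted p = 0.191), and without replicate 1 or 2 at 4 h the adjusted p was 0.131 or 0.0552. With DESeq2 the adjusted p of SIK3 was 0.0578. SIK2 passed the test with any 1 library left out.

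Levels of different genes were compared per kb of exon, taken as the union of annotated exons, which can exceed the length of the transcripts actually made. On that scale SIK1 had 653 ± 62.1 normalized counts per kb at 4 h and 1734 ± 213 at 8 h, SIK2 74.4 ± 6.62 and 101 ± 3.14, and SIK3 20.5 ± 1.02 and 28.4 ± 5.42 (SD, n = 2 each). SIK1 made up 87.2% and 87.4% of the summed level of the SIK genes in the 4 h replicates and 92.8% and 93.3% in the 8 h replicates. The share of SIK2 went from 9.98% and 9.92% to 5.80% and 5.12%, although its own level was higher at 8 h. SIK3 held between 1.44% and 2.84% in every library.

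**Figure D1:**
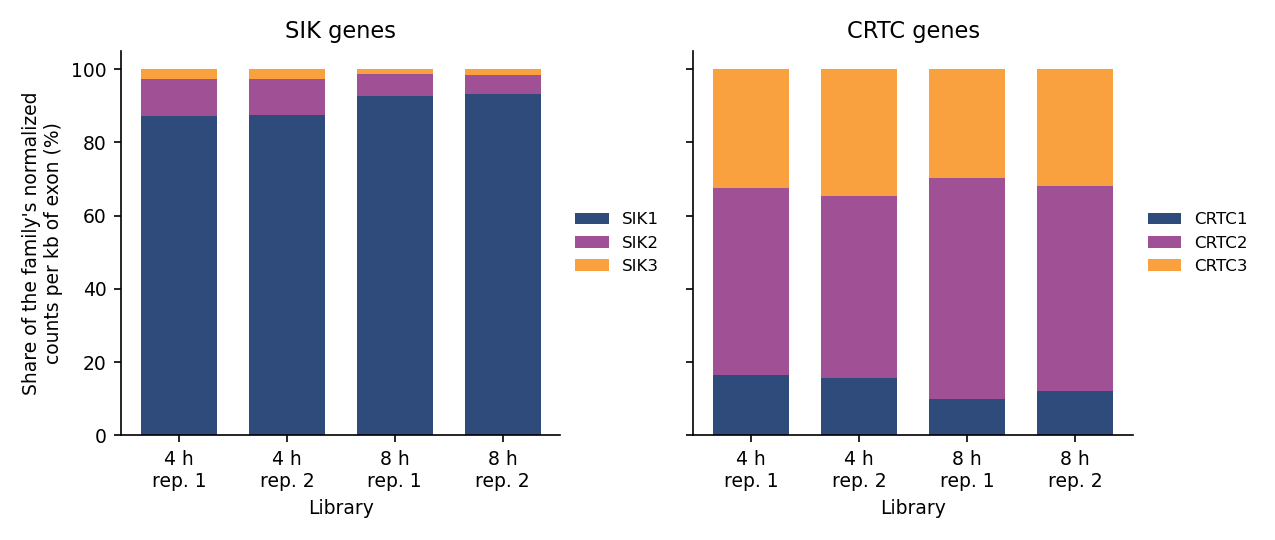
Share of each gene in the summed normalized counts per kb of exon of its family (y axis, percent), for the SIK genes (left) and the CRTC genes (right) in each of the 4 libraries (x axis). SIK1 is over 87% of its family in every library, while CRTC2 is the largest part of the CRTC family, from 49.5% to 60.4%.

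CRTC2 (chromosome 1, 153920145 to 153931091, minus strand), the coactivator best known from the hormonal control of glucose production in liver, had 294 and 302 normalized counts at 4 h against 435 and 468 at 8 h. The replicates lay close together and the times apart, and CRTC2 rose 1.52-fold (log2FC 0.60, standard error 0.11, edgeR adjusted p = 0.000299). This was the largest change in the family among the genes that were tested and passed. CRTC3 (chromosome 15, 91073155 to 91188577, plus strand), a coactivator of the same type, had 558 and 637 at 4 h against 644 and 804 at 8 h. The times did not overlap, but replicate 1 at 8 h was only just above replicate 2 at 4 h, and the log2FC of 0.27 (95% interval 0.04 to 0.50) missed the threshold (edgeR adjusted p = 0.0551). Without replicate 1 at 8 h its log2FC was 0.43 (edgeR adjusted p = 0.000656), and without replicate 2 at 8 h it was 0.11 (edgeR adjusted p = 0.469).

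CRTC1 (chromosome 19, 18794488 to 18893143, plus strand), the member best known from neurons, had 183 and 186 normalized counts at 4 h against 137 and 194 at 8 h. The 8 h replicates fell on either side of both 4 h replicates. Its log2FC of −0.17 (95% interval −0.52 to 0.18) did not pass the test (edgeR adjusted p = 0.450), and it was 0.07 without replicate 1 at 8 h. In the summed level per kb of the CRTC genes, CRTC1 held 16.5% and 15.8% at 4 h against 9.84% and 11.99% at 8 h, and CRTC2 51.2% and 49.5% at 4 h against 60.4% and 56.0% at 8 h. CRTC3 held 32.3% and 34.8% at 4 h against 29.8% and 32.0% at 8 h, a small gap between the times.

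CREB1 (chromosome 2, 208394461 to 208470712, plus strand), the transcription factor on which CRTCs act, had 529 and 502 normalized counts at 4 h against 697 and 698 at 8 h. It rose 1.35-fold (log2FC 0.44, standard error 0.09, edgeR adjusted p = 0.00117). CREM (chromosome 10, 35415719 to 35501886, plus strand), its close relative, had 155 and 151 at 4 h against 222 and 195 at 8 h. It rose 1.36-fold (log2FC 0.45, standard error 0.15, edgeR adjusted p = 0.0232), and the times did not overlap. The call of CREM was lost with library size alone (log2FC 0.34, edgeR adjusted p = 0.0770), with DESeq2 (adjusted p = 0.107) and without replicate 1 at 4 h, replicate 2 at 4 h or replicate 1 at 8 h (edgeR adjusted p = 0.114, 0.135 and 0.134). One row of counts covers all CREM transcripts, so the activators and the short ICER forms cannot be told apart.

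PDE4B (chromosome 1, 66258197 to 66840262, plus strand) and PDE4D (chromosome 5, 58264865 to 59817947, minus strand) encode enzymes that break down cAMP, and both were close to the filter. PDE4B had raw counts of 20 and 23 at 4 h against 24 and 27 at 8 h. On the normalized scale these were 17.9 and 20.9 against 24.5 and 33.5, without overlap, and the log2FC of 0.56 (95% interval −0.16 to 1.29) did not pass the test (edgeR adjusted p = 0.207). PDE4D had raw counts of 23 and 34 at 4 h against 35 and 23 at 8 h. Its normalized counts of 20.6 and 30.8 against 35.8 and 28.6 overlapped, with a log2FC of 0.33 (95% interval −0.34 to 1.01, edgeR adjusted p = 0.439). Both intervals reach from below 0 to above 1, so at this depth a change of the size seen in SIK2 or CRTC2 was not detectable in either gene.

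**Figure D2:**
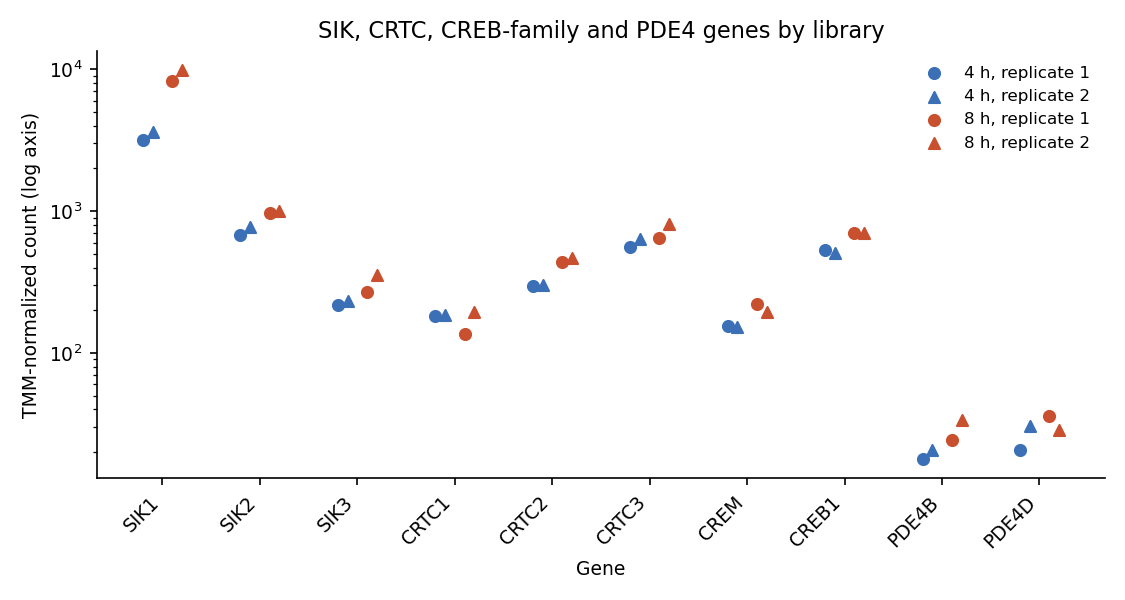
TMM-normalized count (y axis, log scale) of the 10 genes (x axis) in each library, with circles for replicate 1, triangles for replicate 2, blue for 4 h and red for 8 h. SIK1 stands above the other genes in every library, PDE4B and PDE4D lie between 17.9 and 35.8, and the times overlap for CRTC1 and PDE4D.

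**Figure D3:**
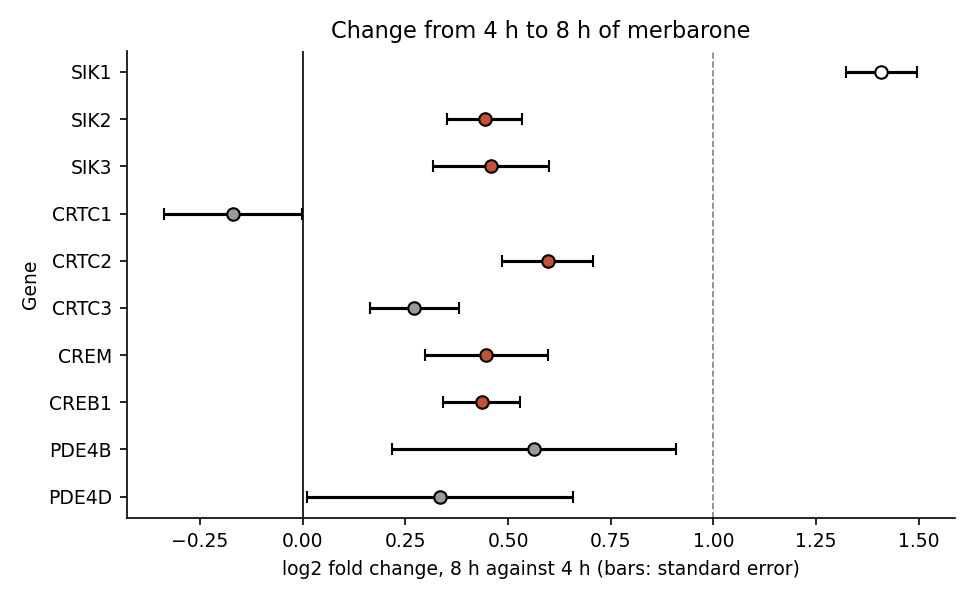
Fitted log2 fold change of 8 h against 4 h (x axis) for each gene (y axis), with bars of 1 standard error, red points for an edgeR adjusted p below 0.05, grey points for genes that did not pass, and an open point for SIK1, which was not tested. The solid line marks no change and the dashed line a log2FC of 1. The 5 red points lie between 0.44 and 0.60, and SIK1 at 1.41.

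Of the 9 genes other than SIK1, 5 rose at an adjusted p below 0.05 (SIK2, SIK3, CRTC2, CREM and CREB1), 0 fell and 4 did not pass. Among all 12559 retained genes, 19.9% rose and 18.8% fell by the same rule. The members were chosen with earlier results of these data known, so their count is no independent evidence. With an absolute log2FC above 1 as well, the study's definition of a DEG, 0 of the 9 passed, against 5.33% of all retained genes (1.45% higher and 3.88% lower). In 7 of the 9 genes both 8 h libraries were above both 4 h libraries, which was so for 34.8% of all retained genes, while 34.9% had both below and 69.7% thus did not overlap. The median log2FC of the 9 genes was 0.44 and that of all retained genes −0.00241. Scaling by library size only moved the latter to −0.11 and made 66.0% of all calls lower ones, against 48.6% with TMM. Of the 5 that rose, SIK2, SIK3, CRTC2 and CREB1 also passed with library size alone. SIK2, CRTC2 and CREB1 passed in all 12 alternatives of scaling, test, filter, block, trend and left-out library in which the family was refitted.

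Ordered by level per kb at 4 h, SIK1 was followed by CRTC2, SIK2, CRTC3, CREB1, CREM, CRTC1, SIK3, PDE4B and PDE4D. Of these neighbours, the ranges of the replicates overlapped for CREM (26.6 to 27.2) and CRTC1 (26.3 to 26.7). At 8 h the order was the same except that SIK3 (24.5 to 32.2) came before CRTC1 (19.7 to 27.8), and this pair overlapped. CRTC2 had 82.8 ± 1.48 normalized counts per kb at 4 h and 125 ± 6.63 at 8 h, and PDE4D 1.58 ± 0.44 and 1.97 ± 0.31 (SD, n = 2 each). By level per kb, SIK1 lay above 98.1% of retained genes with a length and PDE4D above 1.63%.

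Strand use in the counting is not given in the sources used here, so exons shared with a gene on the other strand leave some reads uncertain. The shared part was small. SIK2 shared 1.54% of its exon bases with PPP2R1B, which had a log2FC of 0.09 (edgeR adjusted p = 0.619), and CREM shared 3.35% with CUL2, which had a log2FC of −0.14 (edgeR adjusted p = 0.416). CREM also shared 3.6% with a long non-coding RNA gene, and for CREB1, CRTC3 and PDE4D no overlapping gene covered more than 1.39%.

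The 3 genes whose profile over the 4 libraries was nearest to that of SIK1, among the 9655 genes that reached 100 mean normalized counts at either time, were FOXK1, JMY and FOS. The measure was the Euclidean distance between log2 normalized counts centred on each gene's mean, and it was 0.100, 0.103 and 0.109. FOXK1, a forkhead transcription factor gene, had 377 and 417 normalized counts at 4 h against 895 and 1090 at 8 h. JMY, which encodes a cofactor of p53 and actin regulator, had 227 and 284 against 622 and 768, and FOS, an immediate-early gene of AP-1, had 350 and 398 against 878 and 985. In all 3, as in SIK1, replicate 2 was the higher one at both times, which the choice by distance over the same 4 libraries favours. With 4 libraries the measure is a description only.

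The surrounding pathway was read from 6 lists, from the making of cAMP to the genes that CREB activates. All 6 were chosen with earlier results of these data known, so their counts are no independent evidence. For cAMP synthesis and PKA, 14 of 20 genes were retained, of which 2 rose, 0 fell and 12 did not pass (14.3% called, against 38.8% of all retained genes), with a median log2FC of 0.09. With library size alone 1 rose and 1 fell, and without replicate 2 at 4 h 1 rose. The risers were GNAS, the stimulatory G protein subunit that turns on adenylyl cyclases, with 6743 ± 251 normalized counts at 4 h and 8675 ± 133 at 8 h (SD, n = 2 each, log2FC 0.36, edgeR adjusted p = 0.000339), and PKIG, an inhibitor of PKA, with 387 ± 0.87 against 499 ± 25.9 (SD, n = 2 each, log2FC 0.37, edgeR adjusted p = 0.00876). None of the retained cyclases and PKA subunits passed, the catalytic subunit PRKACA having a log2FC of −0.03 (edgeR adjusted p = 0.811).

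Of 14 other cAMP phosphodiesterases, 6 were retained, of which 2 rose and 2 fell (66.7% called, against 38.8% of all retained genes). Their median log2FC was −0.16. DESeq2 called 1 in each direction, as did the fit without replicate 1 at 4 h, and without replicate 2 at 4 h 1 rose and 0 fell. Without replicate 2 at 8 h 1 rose and 2 fell. The most abundant, PDE1C, a calcium-dependent enzyme, fell, with 1167 ± 74.7 normalized counts at 4 h against 951 ± 38.4 at 8 h (SD, n = 2 each, log2FC −0.30, edgeR adjusted p = 0.00989), and PDE8A, a high-affinity enzyme, fell, with 211 ± 2.95 against 151 ± 2.48 (SD, n = 2 each, log2FC −0.48, edgeR adjusted p = 0.0142). The risers, named after their values were seen, rested on few reads. PDE2A had raw counts of 7 and 13 at 4 h against 52 and 28 at 8 h. At 4 h only replicate 2 exceeded a CPM of 1. PDE2A was thus retained through its 8 h libraries, and its call is no support for a rise. PDE7B had 15 and 16 against 23 and 34 (log2FC 1.2, edgeR adjusted p = 0.0179).

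For LKB1, its partners and the other kinases related to AMPK, 15 of 16 genes were retained, of which 5 rose and 0 fell (33.3% called). The median log2FC was 0.23. Among all retained genes 38.8% were called, 19.9% higher and 18.8% lower. MARK4, a microtubule-affinity regulating kinase, rose the most, with 425 ± 5.88 normalized counts at 4 h against 692 ± 86.2 at 8 h (SD, n = 2 each, log2FC 0.70, edgeR adjusted p = 3.72e-05), and its relatives MARK2 and MARK3 rose with log2FC of 0.45 and 0.36 (edgeR adjusted p = 0.00146 and 0.00162). STK11, which encodes LKB1 itself, had 469 and 545 at 4 h against 532 and 762 at 8 h, which overlap, and was just past the threshold (log2FC 0.34, edgeR adjusted p = 0.0447). With library size alone 3 of the list rose and 1 fell, and 3 rose with DESeq2, without replicate 2 at 4 h and without replicate 2 at 8 h.

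Among calcineurin, 14-3-3 and COP1 genes, which move or degrade CRTCs, 11 of 12 were retained. Of these, 2 rose and 3 fell (45.5% called, against 38.8% of all retained genes), with a median log2FC of −0.16. Among the 14-3-3 genes there were calls in both directions, YWHAE and YWHAG rising (log2FC 0.27 and 0.20, edgeR adjusted p = 0.00813 and 0.0275) and YWHAB and YWHAH falling (log2FC −0.40 and −0.19, edgeR adjusted p = 0.000255 and 0.0407). These calls depended on the fit. With library size alone 0 rose and 6 fell, without replicate 2 at 4 h 0 rose and 1 fell, without replicate 1 at 4 h 1 rose and 2 fell, with DESeq2 1 rose and 1 fell, and with the abundance trend corrected 1 rose and 5 fell. COP1, a ubiquitin ligase, fell, with 233 ± 17.6 normalized counts at 4 h against 172 ± 10.1 at 8 h (SD, n = 2 each, log2FC −0.44, edgeR adjusted p = 0.0192). None of the 4 calcineurin genes passed.

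All 10 genes of CREB partners and of the class IIa HDAC and MEF2 branch, a second arm controlled by SIKs, were retained. Of these, 6 rose and 0 fell (60.0% called), with a median log2FC of 0.60. Among all retained genes 38.8% were called, 19.9% higher and 18.8% lower. The acetyltransferases that CREB recruits were both among them, EP300 going from 443 and 476 to 839 and 939 normalized counts (log2FC 0.95, edgeR adjusted p = 3.76e-07) and CREBBP from 1351 and 1431 to 2014 and 2447 (log2FC 0.68, edgeR adjusted p = 9e-06). HDAC9 and HDAC5, repressors that SIKs phosphorylate, rose with log2FC of 1.05 and 0.79 (edgeR adjusted p = 1.8e-07 and 2.87e-06), and MEF2D, a factor that these repressors bind, with 0.82 (edgeR adjusted p = 3.37e-07). HDAC4, HDAC7, MEF2A and MEF2C did not pass, with log2FC from −0.44 to 0.03. With library size alone, and without replicate 2 at 8 h, 6 of the 10 rose and 1 fell.

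Of 26 textbook CREB target genes outside the family, 17 were retained, of which 10 rose, 1 fell and 6 did not pass. This made 64.7% called, against 38.8% of all retained genes (19.9% higher and 18.8% lower). The median log2FC was 0.49. Without replicate 2 at 8 h 9 rose and 2 fell. The list was made with the rises of the NR4A genes known, so its count is no independent evidence. Of the 11 called genes, those with the largest absolute log2FC among genes that reached 100 mean normalized counts at either time were NR4A3, NR4A2, EGR1 and PER1. NR4A3, a nuclear receptor gene, met that level only at 8 h, with 25.7 ± 5.92 normalized counts at 4 h against 120 ± 41.1 at 8 h (SD, n = 2 each). PER1, a clock gene with CREs, had 232 and 283 normalized counts at 4 h against 677 and 768 at 8 h (log2FC 1.48, edgeR adjusted p = 1.29e-08). DUSP1, a phosphatase of MAP kinases and the most abundant of the list, had 4732 and 4838 against 11401 and 12291 (log2FC 1.31, edgeR adjusted p = 2.58e-10). EGR1, a zinc finger factor, went the other way, with 3635 and 3675 against 1066 and 1297 (log2FC −1.63, edgeR adjusted p = 2.58e-10). The 9 targets that were not retained include PCK1 and G6PC1, genes of glucose production, with no count in any library.

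**Figure D4:**
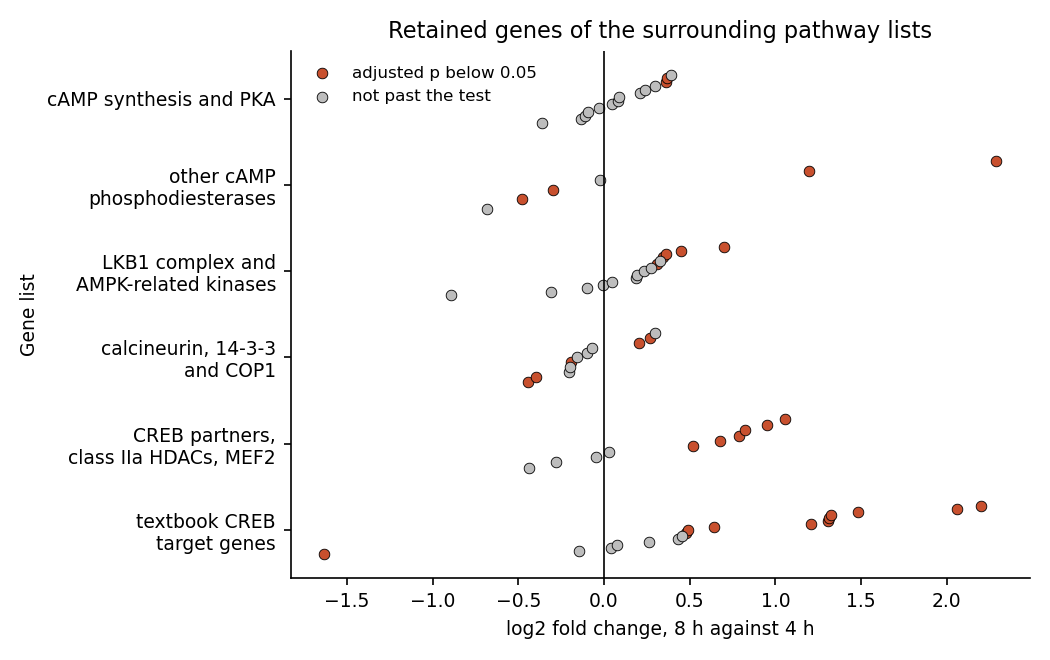
Fitted log2 fold change of 8 h against 4 h (x axis) of every retained gene in the 6 lists (y axis), red where the edgeR adjusted p was below 0.05 and grey where it was not. The genes of cAMP synthesis and PKA lie between −0.36 and 0.39, while among the textbook CREB target genes values run from −1.63 to 2.20.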

How the data were processed

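RNA-Seq libraries from 150 ng of total RNA were made with a stranded poly(A) protocol. After quality filtering (FASTQC), the authors aligned reads to hg19 by Bowtie 1.2.0, kept those with a single position, and deposited raw counts per gene by NCBI Gene identifier. The annotation, counting tool and strand setting are not given in the sources used here. Symbols came from RefSeq (23308 of 23459 genes) and GRCh37 positions and exon lengths from GENCODE (22207). Genes were retained if their CPM exceeded 1 in 2 or more libraries, corrected by TMM, and tested with the quasi-likelihood F test of edgeR 4.0.16 (R 4.3.3) over the 4 libraries, fitting time alone, with Benjamini-Hochberg adjustment over 12559 genes. The members, lists and naming rule were chosen with earlier results of these data known. The rule named all 10 members, in each list up to 4 called genes with at least 100 mean normalized counts at the higher time and the most abundant gene, and the 3 genes nearest to SIK1 (0.5 added before log2). Limma-Voom (limma 3.58.1) and DESeq2 1.42.0 were among the alternatives. On simulated counts of 12559 genes, with 200 changed, edgeR recovered 95% of genes with an absolute log2FC of 1 and 63% at 0.5, with 15 false calls. The changed share was far below the 38.8% called in the data, so these rates need not hold there. With 2 libraries per time, p-values depend on a spread estimated over many genes (biological coefficient of variation 6.52%), and an exact permutation test cannot reach 0.05.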

Additional observations from a re-analysis of the deposited data

How the results depend on the processing

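Over scaling, test, filter, trend and block, SIK1 had a log2FC from 1.25 to 1.41, and from 1.28 to 1.53 with 1 library left out. Of the other 9 genes, 5 rose as reported, 3 did with DESeq2, and from 3 to 5 did with 1 library left out, while 0 fell in any of these fits. With 1 library left out the log2FC of CRTC1 ranged from −0.428 to 0.0716, reversing without replicate 1 at 8 h. Over all genes 4867 were called, 2500 higher and 2367 lower. DESeq2 called 1498 lower, and glmTreat against an absolute log2FC of 0.5 called 821 in all, 328 higher and 493 lower, as its construction asks for a larger change. With 1 library left out, 3061 to 4838 were called, 1562 to 2527 higher and 1499 to 2311 lower, and the single library left at a time was assumed to vary like the others.

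The times share replicate numbers, but nothing in the labels ties same-numbered libraries to one another, and their deviations from the group means had a correlation of 0.04 across genes. With the replicate number as a block 5493 genes were called, and 6 of the 9 family genes rose, CRTC3 being added (log2FC 0.27, edgeR adjusted p = 0.0105). Without the filter on low counts 6 also rose, again with CRTC3 added (log2FC 0.27, edgeR adjusted p = 0.0474). Which family genes were called also varied with the library left out. Over the alternatives, 116 counts for the pathway lists stayed within 1.5 times the reported one and 28 did not. With the block, 3 of the calcineurin, 14-3-3 and COP1 genes rose and 5 fell. PDE4B and PDE4D rest on at most 35 counts per library, which limits what could be detected for them.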
